A study of Homo sapiens with 12 samples.

Results

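HEK293 cells, a human embryonic kidney line used here as the Flp-In T-REx derivative, were transfected with an siRNA against SLTM, and their polyadenylated RNA was compared with that of cells given a negative control siRNA. The comparison took the 3 SLTM knockdown (SLTM KD) libraries and the 3 control libraries, 6 of the 12 libraries analysed here, chosen by their sample labels. Of the other 6 libraries, 3 came from cells given an siRNA against SAFB (SAFB1 KD). The other 3 came from cells given siRNAs against SAFB, SAFB2 and SLTM at once (triple KD). These 6 are used to show where SLTM KD differed from them. They also entered the filter on counts, the scaling and the estimate of spread behind the SLTM KD calls. In SLTM KD and SAFB1 KD the total amount of siRNA was brought up to that of triple KD with the negative control siRNA, an addition described for the single knockdowns only, and cells were harvested on the second day after transfection. The series describes the 3 libraries of a group as biological replicates, and nothing states that they came from separately thawed or derived cultures. Each SLTM KD library held 58070400 to 62227480 reads assigned to genes, against 62104421 to 75533510 in the control libraries. SLTM KD replicate 3 stood apart from replicates 1 and 2 for several genes, which are given with and without it.

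SLTM (SAFB-like transcription modulator) is a nuclear protein with a SAP domain, which binds AT-rich scaffold attachment DNA, and an RNA recognition motif. It belongs to a small family with SAFB (scaffold attachment factor B, also called SAFB1) and SAFB2, whose members bind RNA and chromatin-associated proteins and are known as regulators of transcription and splicing. The series asks what each member does to the transcriptome, and the SLTM knockdown is the arm in which SAFB and SAFB2 were left untargeted.

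A single siRNA was used against SLTM. The sense strand and the guide strand of the SLTM siRNA, with those of the siRNAs used in the other groups for comparison, are written 5′ to 3′ with the guide seed (guide bases 2 to 8) and the bases of the sense strand that pair with it in capitals.

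SLTM siRNA, sense strand: gcauuagaauaAUUCGUGatt
SLTM siRNA, guide strand: uCACGAAUuauucuaaugc
SAFB1 siRNA, guide strand: uUUCUGAUcaucuuggucc
SAFB2 siRNA, guide strand: uUAUCCAUcacgaccgucc

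The 3 guides have different seeds. The SLTM guide pairs over all 19 bases with a site in the SLTM messenger RNA, which lies in the coding sequence, in exon 15 of 21 of ENST00000380516 (bases 2054 to 2072 of 4168), at chr15:58890402-58890420 on the minus strand of GRCh38. The site, with the bases around it in lower case, shows what the siRNA was built to cut.

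SLTM target site: agaacGCATTAGAATAATTCGTGAacggga

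No other gene tested had an ungapped match with 1 or 2 mismatches, and 7 had one with 3 mismatches. The best match in SAFB had 7 mismatches and that in SAFB2 had 8. Among the 7 near matches, TMEM165 (-0.11 ± 0.03 (SE) on the log2 scale, adjusted p = 0.00769) and HOXA13 (-0.08 ± 0.027, adjusted p = 0.0375) were lower, both by little. DNAH6, LPIN1, MAPK10, SLC25A21-AS1 and TOP2B did not pass the test. Beside this, 5.65% of all genes tested and 10.4% of genes of at least 1 CPM were lower. The TMEM165 call was lost without control replicate 3 or SLTM KD replicate 2, and that of HOXA13 under 9 alternative settings.

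Levels are given as CPM, the deposited gene counts scaled to a common library size with edgeR's TMM factors, and differences as log2 fold changes with their SE from edgeR's quasi-likelihood fit over all 12 libraries, called at an adjusted p under 0.05. SLTM stood at 114, 117 and 116 CPM in the control libraries and at 19.6, 19.3 and 22.7 CPM in the SLTM KD libraries. The groups lay far apart, with a log2 fold change of -2.50 ± 0.038 (n = 3 and 3, adjusted p = 1.98e-52), and SLTM also passed a test for a change over 2-fold (adjusted p = 5.47e-41). In triple KD, SLTM stood at 22.6, 25.8 and 26.6 CPM, which was higher than in SLTM KD by 0.29 (adjusted p = 1.65e-07). In SAFB1 KD it stood at 135, 139 and 141 CPM, above all control libraries (0.26, adjusted p = 2.16e-09).

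SAFB, the founding member of the family, was measured at 231, 235 and 230.5 CPM in the control libraries and at 232, 233 and 241 CPM in SLTM KD. These libraries overlapped, and SAFB did not pass the test (0.02 ± 0.023, adjusted p = 0.701). SAFB2, the closest paralogue of SAFB and its neighbour on chromosome 19, rose slightly, from 125, 125 and 129 CPM to 138, 138 and 142 CPM, with no overlap (0.14 ± 0.024, adjusted p = 1.15e-05). SAFB1 KD had a larger rise of SAFB2, to 207, 206 and 213 CPM, and the difference between the single knockdowns was itself significant (-0.58 ± 0.024 in SLTM KD against SAFB1 KD, adjusted p = 4.32e-29).

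**Figure D1:**
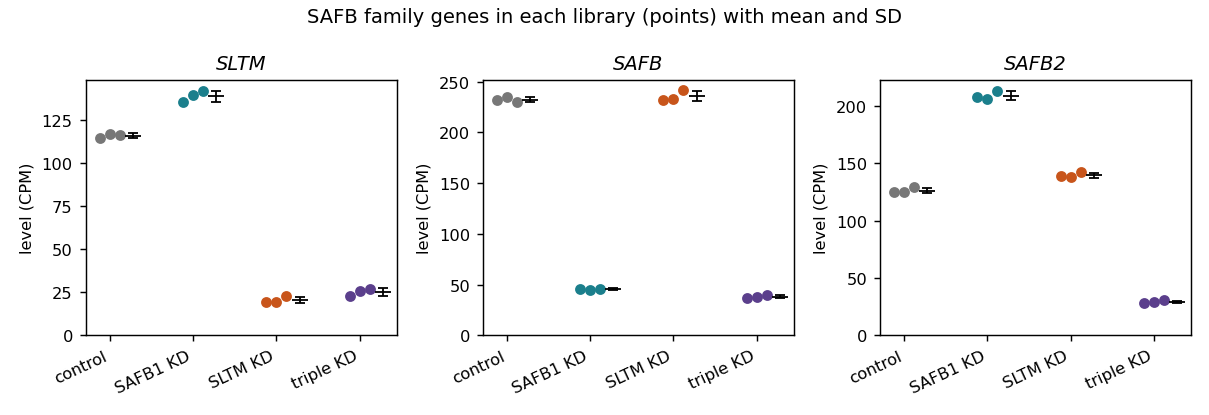
CPM (vertical axis, linear from 0) of SLTM, SAFB and SAFB2 in each of the 3 libraries (points) of control, SAFB1 KD, SLTM KD and triple KD, with the mean and SD beside them. SLTM falls to 19.3 to 22.7 CPM in SLTM KD, where SAFB overlaps the control libraries and SAFB2 lies slightly above them.

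Beyond its target, SLTM KD changed many genes by small amounts. Of 26688 genes tested, 962 were higher (3.6%) and 1509 lower (5.65%) than in control, 9.26% in all. The median size of a called change was 0.15 on the log2 scale, and 67.9% of the called genes moved by less than 0.2. Changes over 0.5 were found for 163 called genes that were higher and 95 that were lower. In the test for a change over 2-fold no gene was higher and 2 were lower (0.00749% of those tested), SLTM itself and DNAH10OS. At an adjusted p under 0.05, limma-voom and DESeq2 also gave no gene higher over 2-fold. At an unadjusted p under 0.05, edgeR's glmTreat gave 125 higher genes, a count before any correction for 26688 tests. The same comparison with control gave 1345 higher and 1232 lower genes in SAFB1 KD (5.04% and 4.62%) and 5174 and 5591 in triple KD (19.4% and 20.9%). The share of SLTM KD calls that were higher, 38.9%, depended on the scaling: it was 57.5% with upper-quartile factors (1552 higher, 1146 lower), and 50.6% with an offset for transcript GC content (1185 higher, 1155 lower).

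**Figure D2:**
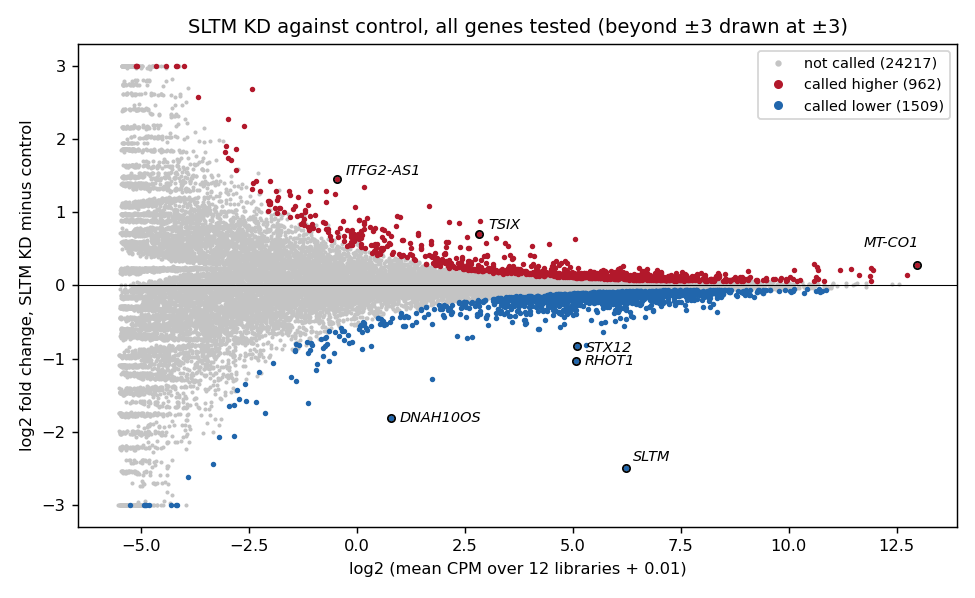
Log2 fold change of SLTM KD over control (vertical axis) against log2 of the mean CPM over 12 libraries plus 0.01 (horizontal axis) for all 26688 genes tested, with 962 called higher in red and 1509 called lower in blue. Most called genes lie close to 0, and SLTM lies furthest below it among abundant genes.

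The genes that fell most, by the naming rule, were 10 protein-coding genes, 3 processed pseudogenes, a long non-coding RNA and a microRNA locus. RHOT1 encodes Miro1, a GTPase of the outer mitochondrial membrane that links mitochondria to microtubule motors. The gene (chr17:32142454-32253374, plus strand of GRCh38) stood at 46.8, 47.9 and 47.6 CPM in control and at 23.1, 23.3 and 23.1 CPM in SLTM KD. The libraries of each group were nearly identical and the groups were far apart (-1.03 ± 0.036, adjusted p = 2.81e-32). Its SAFB1 KD libraries, at 47.3, 51.0 and 49.8 CPM, did not differ from control by the test (0.06, adjusted p = 0.311), and SLTM KD was lower than SAFB1 KD (-1.09 ± 0.036, adjusted p = 7.47e-34). Triple KD was lower still, at 14.2, 14.8 and 14.3 CPM (adjusted p = 2.22e-21 against SLTM KD). RHOT2, which encodes the related Miro2, changed by -0.09 (adjusted p = 0.012), a call lost without SLTM KD replicate 1 or 2 and under upper-quartile factors. The other 10 genes of mitochondrial transport and dynamics did not pass the test. That list had 16.7% of its genes lower, beside 14.4% of coding genes of 35.59 to 80.0 CPM.

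STX12 (chr1:27773219-27824443, plus strand) encodes a syntaxin of endosomes, a membrane-bound protein for vesicle fusion. It fell from 39.7, 40.0 and 38.9 CPM to 22.7, 22.3 and 21.6 CPM (-0.83 ± 0.037, adjusted p = 7.66e-27). The groups did not overlap, and without any 1 of these 6 libraries the change stayed between -0.85 and -0.82. STX12 was not called in triple KD, which received the same SLTM siRNA, with 38.2, 38.2 and 38.6 CPM (-0.04, adjusted p = 0.327). The difference between triple KD and SLTM KD was significant (0.79, adjusted p = 4.03e-27). In SAFB1 KD, STX12 stood at 37.1, 36.0 and 34.4 CPM, between the control and the SLTM KD libraries. Of 21 syntaxins and SNARE partners tested, STX7 (-0.16, adjusted p = 4.21e-05) and SNAP23 (-0.13, adjusted p = 0.00201) were also lower and none was higher, although the STX7 call was lost with the GC offset. The list had 14.3% of its genes lower, beside 10.4% of all genes of at least 1 CPM.

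CENPQ (chr6:49463370-49493107, plus strand) encodes a subunit of the constitutive centromere-associated network, and is 1 of 8 genes on a list of hosts of transposable element exons. Its level fell from 33.3, 34.7 and 34.8 CPM to 23.6, 24.1 and 23.6 CPM (-0.53 ± 0.038, adjusted p = 9.14e-17). No SLTM KD library came near a control library, and none of the other 7 hosts passed the test. CENPQ alone made 12.5% of that list lower, beside 10.4% of all genes of at least 1 CPM. SAFB1 KD stood at 33.4, 33.4 and 34.2 CPM, and SLTM KD was lower than that (-0.50, adjusted p = 1.97e-16). Triple KD fell further, to 18.8, 19.1 and 17.8 CPM (adjusted p = 5.34e-11 against SLTM KD).

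DNAH10OS (chr12:123925461-123934984, minus strand), a long non-coding RNA on the strand opposite to the dynein gene DNAH10, was at 1.69, 1.87 and 1.66 CPM in control and at 0.481, 0.369 and 0.636 CPM in SLTM KD. It fell by 1.81 on the log2 scale (SE 0.17, adjusted p = 5.21e-12), and by more than 2-fold in the stricter test (adjusted p = 0.0331), which it did not pass under several alternatives. In SAFB1 KD the same RNA went the other way, to 3.94, 4.29 and 3.72 CPM (1.20, adjusted p = 2.61e-12), so the single knockdowns differed by -3.01 ± 0.15 (adjusted p = 2.19e-24). Triple KD, at 0.788, 0.534 and 0.537 CPM, resembled SLTM KD in level, with a difference of 0.31 that did not pass the test (adjusted p = 0.305). About 30.0% of its exonic bases lie opposite coding exons of DNAH10.

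LDHB, which encodes the B subunit of lactate dehydrogenase, fell from 48.5, 51.0 and 53.3 CPM to 33.2, 32.8 and 20.9 CPM (-0.81 ± 0.071, adjusted p = 2.12e-13). SLTM KD replicate 3 stood well below the other two, and without it the change was -0.63. The same library was lowest for TMED7, a cargo receptor between endoplasmic reticulum and Golgi, at 45.4, 45.4 and 33.7 CPM against 67.9, 63.7 and 61.8 CPM in control (-0.63 ± 0.06, adjusted p = 3.62e-12). It was also lowest for MICOS10, a subunit of the complex that shapes mitochondrial cristae, at 5.98, 5.82 and 4.45 CPM against 8.99, 8.81 and 8.86 CPM (-0.71 ± 0.077, adjusted p = 2.18e-10). Without that library the changes were -0.51 for TMED7 and -0.59 for MICOS10, both still called. MICOS10 was the called member among 11 genes of that complex, 9.09% of them, beside 10.4% lower among all genes of at least 1 CPM. PSMA6, an alpha subunit of the proteasome core, fell from 7.09, 6.59 and 6.16 CPM to 4.33, 3.86 and 3.77 CPM (-0.72 ± 0.077, adjusted p = 1.46e-10). Of 14 core proteasome genes, PSMA1 (-0.30, adjusted p = 3.02e-06) and PSMA7 (-0.06, adjusted p = 0.0441) were also lower and none was higher. The PSMA7 call was lost under 8 alternatives. The list had 21.4% of its genes lower, beside 16.0% of coding genes of at least 80.02 CPM. GET1, part of the receptor that inserts tail-anchored proteins into the endoplasmic reticulum, fell from 27.6, 25.7 and 22.7 CPM to 17.9, 16.9 and 15.1 CPM (-0.60 ± 0.065, adjusted p = 1.86e-10). In LDHB, TMED7, MICOS10, PSMA6 and GET1, between 11.7% (MICOS10) and 33.4% (LDHB) of exonic bases are shared with other annotated genes on the same strand, where reads are not assigned, so the counts follow only the unshared part of each gene. Read-through genes and pseudogenes that overlap such loci were not separated further.

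The remaining members of the 15 lowest genes were scarce. CFAP45, a protein of the ciliary axoneme, was at 1.74, 1.81 and 1.51 CPM in control and 0.962, 0.905 and 1.07 CPM in SLTM KD (-0.79, adjusted p = 0.000265). SAFB1 KD stood at 0.766, 0.609 and 0.745 CPM, from which SLTM KD did not differ by the test (0.47, adjusted p = 0.0781). It was nearly absent in triple KD, at 0.0880, 0.0870 and 0.158 CPM, which differed from SLTM KD by -3.12 (adjusted p = 5.47e-15). NPB, which encodes neuropeptide B, changed by -0.60 (adjusted p = 0.00247), and MIR1244-2, a microRNA locus of which only a polyadenylated host RNA can be counted here, by -1.28 (adjusted p = 3.7e-12). The pseudogenes RPS10P3 (-0.87), EEF1A1P13 (-0.69) and RPL10P9 (-0.68) are named as copies of abundant coding genes, and their reads may not be told apart from those of the parent. RPL10P9 lost its call without control replicate 3, SLTM KD replicate 2 or SLTM KD replicate 3.

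**Figure D3:**
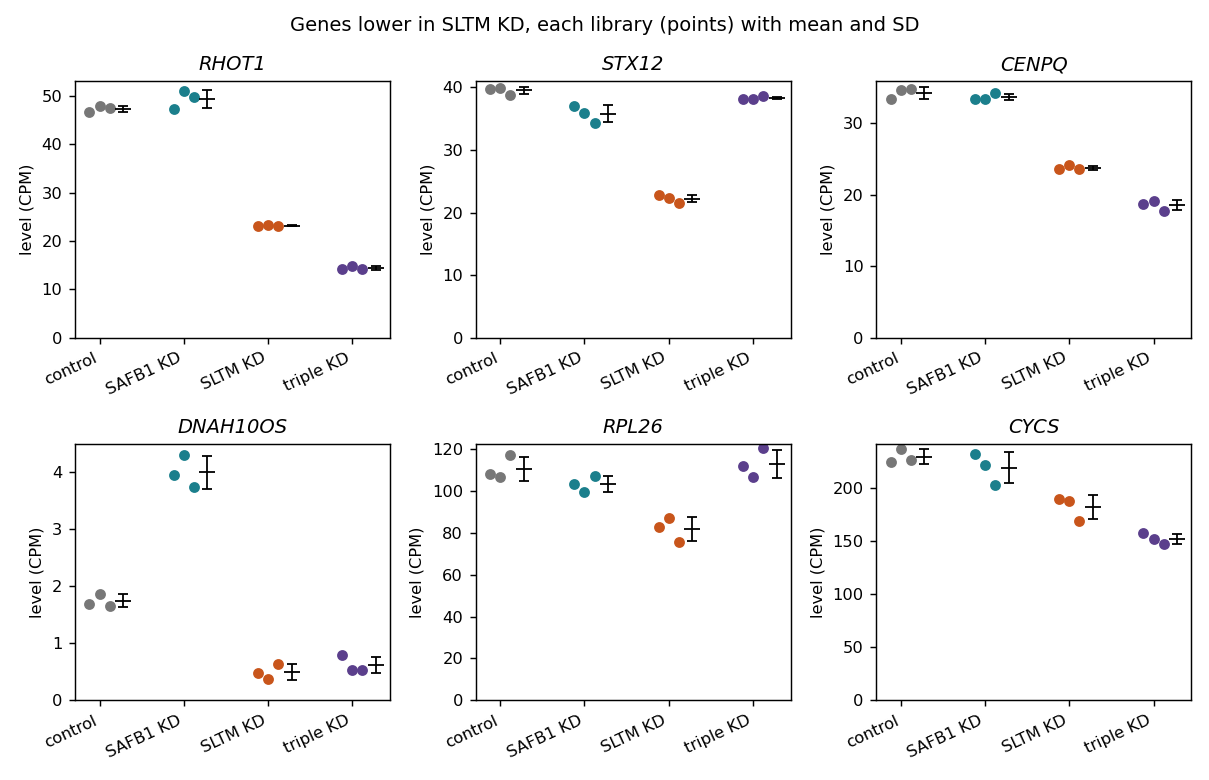
CPM (vertical axes, linear from 0) of RHOT1, STX12, CENPQ, DNAH10OS, RPL26 and CYCS in each of the 3 libraries of the 4 groups (points), with mean and SD. All 6 fall in SLTM KD, and triple KD is below SLTM KD for RHOT1, CENPQ and CYCS but at the control level for STX12 and RPL26.

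The 15 genes that rose most were scarcer, all with means under 10 CPM in both groups: 9 long non-coding RNAs, 3 protein-coding genes, 2 processed pseudogenes and a microRNA locus. Of these, 12 have exons opposite a coding exon on the other strand, beside 4 of the 15 lowest genes. Among all long non-coding RNAs tested, 2475 of 5998 have such exons. The libraries are strand-specific, but how completely they separate the strands was not measured. ITFG2-AS1 rose most, from 0.623, 0.134 and 0.397 CPM to 0.995, 0.956 and 1.14 CPM (1.45 ± 0.24, adjusted p = 8.08e-06). Its control libraries were uneven, and the change was 1.03 without control replicate 2. TUBA1B-AS1 (chr12:49127782-49188484, plus strand), opposite the alpha-tubulin gene TUBA1B, rose from 4.76, 4.57 and 4.05 CPM to 6.53, 7.33 and 7.84 CPM (0.70 ± 0.097, adjusted p = 1.7e-07). TSIX (chrX:73792205-73829231, plus strand), a non-coding RNA of the X-inactivation centre, rose by the same amount, from 4.37, 5.10 and 5.02 CPM to 7.01, 8.16 and 8.54 CPM (0.70 ± 0.094, adjusted p = 8.14e-08). Both groups of libraries were separate for each of these RNAs. SAFB1 KD was lower than SLTM KD for TUBA1B-AS1 (difference 0.51, adjusted p = 5.55e-05) and for TSIX (0.45, adjusted p = 0.000202), while triple KD was higher than SLTM KD for both (0.61 and 0.31, adjusted p = 1.34e-08 and 0.00227).

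CTBP1-AS rose from 0.511, 0.712 and 0.556 CPM to 1.01, 1.16 and 1.15 CPM (0.89, adjusted p = 0.000646). LGALS8-AS1 rose from 0.814, 1.09 and 0.808 CPM to 1.62, 1.59 and 1.44 CPM (0.78, adjusted p = 0.000266), and ZNF593OS, annotated as coding, from 0.686, 0.739 and 0.609 CPM to 1.33, 1.16 and 1.14 CPM (0.83, adjusted p = 0.000763). The genes opposite to them, looked up after these values were seen, hardly moved. TUBA1B, at a mean of 1489.6 CPM in control, changed by 0.12 (adjusted p = 2.9e-07) and CTBP1 by 0.07 (adjusted p = 0.036, lost under 9 alternatives), while PRMT5 (0.00), RPL30 (-0.05), LGALS8 (0.05) and ZNF593 (0.05) did not pass the test. The calls of 3 further antisense RNAs rested on single libraries: RPL30-AS1 was lost without SLTM KD replicate 1, SPAG5-AS1 without control replicate 1 and PRMT5-AS1 without control replicate 3.

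FAM166A (0.86), MIR3661 (0.81), NDUFV2-AS1 (0.69) and PDF (0.67) complete the antisense members of the list. PDF encodes the peptide deformylase of mitochondria, shares 79.3% of its exonic bases with another gene on its strand, and rose from 5.32, 3.21 and 4.70 CPM to 7.25, 6.52 and 7.05 CPM (adjusted p = 9.87e-07). The 2 pseudogenes lie inside introns of coding genes on the same strand. CHP1P2, in IGF2R, rose from 0.942, 1.18 and 1.19 CPM to 1.59, 1.98 and 1.93 CPM (0.71 ± 0.14, adjusted p = 0.000133), stayed at 1.38, 1.16 and 1.21 CPM in SAFB1 KD and reached 5.76, 6.99 and 6.47 CPM in triple KD. In the annotation used here all of its bases are also exonic in another gene. Its host IGF2R, the receptor for insulin-like growth factor 2, rose by 0.10 (adjusted p = 0.00123). BRCC3P1, in SIMC1, rose from 0.686, 0.739 and 0.675 CPM to 1.49, 1.04 and 0.997 CPM (0.75, adjusted p = 0.00299), mostly through SLTM KD replicate 1, without which the call was lost. It moved the other way in SAFB1 KD, to 0.460, 0.297 and 0.355 CPM, and SLTM KD exceeded SAFB1 KD by 1.67 ± 0.21 (adjusted p = 9.94e-09). SIMC1 fell by 0.14 on the log2 scale in SLTM KD (adjusted p = 0.00768), a call lost without control replicate 1 or SLTM KD replicate 2.

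**Figure D4:**
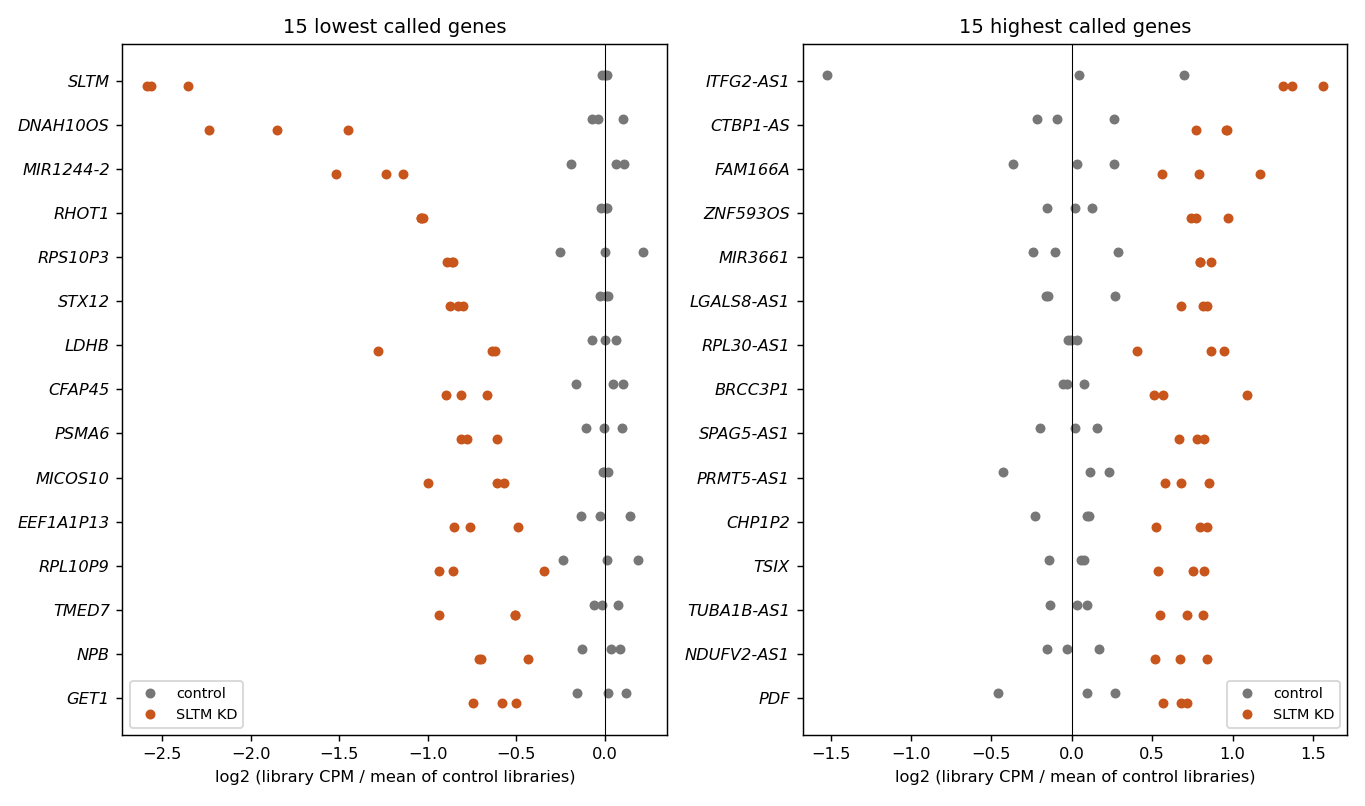
Log2 ratio of each library's CPM to the mean of the control libraries (horizontal axes) for the 15 lowest (left) and 15 highest (right) called genes, with control libraries in grey and SLTM KD libraries in orange. The grey and orange points of a gene do not overlap, which the naming rule required, and the control points of ITFG2-AS1 are the most spread.

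As a class, long non-coding RNAs counted more rises than falls. Of 5998 tested, 149 were higher (2.48%) and 50 lower (0.834%), with a median change of 0.07 against 0.005 for all genes. Both shares were below those of all genes, 3.6% and 5.65%, at a median level of 0.137 CPM. At 1 CPM or more, 95 of 1131 were higher (8.40%) and 37 lower (3.27%). The excess lay in those with an exon opposite a coding exon. Of 2475 such RNAs, 119 were higher (4.81%) and 16 lower (0.646%), beside 3.6% and 5.65% of all genes, and the median was 0.16, at a median level of 0.213 CPM. At 1 CPM or more, 75 of 585 were higher (12.8%, beside 6.2% of all genes of that level) and 13 lower (2.22%, beside 10.4%), with a smaller median of 0.0541. In the class as a whole, the medians of the 3 SLTM KD libraries against the control mean were 0.07, 0.09 and 0.10, and those of the control libraries were between -0.0149 and -0.0034. The count of higher genes in it fell to between 72 and 85 when a control or SLTM KD library was left out, and to 56 with DESeq2, always above the count of lower genes. The 3523 long non-coding RNAs without such an exon had 30 higher (0.852%) and 34 lower (0.965%). In the same antisense class the median was -0.0450 in SAFB1 KD and 0.21 in triple KD, but at 1 CPM or more it was -0.0789 and -0.0584, so the sign in triple KD turned with the level.

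Protein-coding genes had 746 higher (4.65%) and 1405 lower (8.77%) of 16028, beside 3.6% and 5.65% of all genes. At 1 CPM or more, where 6.2% of all genes were higher and 10.4% lower, the lower ones were concentrated among transcripts of low GC content. When the 12343 coding genes of at least 1 CPM with a measured transcript were split into 5 equal bins by the GC content of their canonical transcript, the lowest bin, 30.7 to 40.5% GC, had 775 of 2469 genes lower (31.4%) and 30 higher (1.22%). The next bins had 10.2, 5.27, 4.74 and 4.86% of their genes lower. Shifts were small in every library: in the lowest bin the medians were -0.0489, -0.0381 and -0.0955 for SLTM KD replicates 1 to 3, while the control libraries ran from -0.0047 to 0.0062. SLTM KD replicate 3 stood furthest, and without it 579 genes of that bin were lower. The lowest bin also had the highest share of lower genes among the 5 bins in SAFB1 KD (15.3%) and in triple KD (53.2%). A fit with an offset for transcript GC content, added after the values were seen, left 1155 lower genes in all. In the lowest bin it gave 314 lower (12.7%) and 282 higher (11.4%), with a median of 0.0063. The offset centres each library within bins of GC content, so it removes such a relation by its construction. The cause of the relation was not tested.

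**Figure D5:**
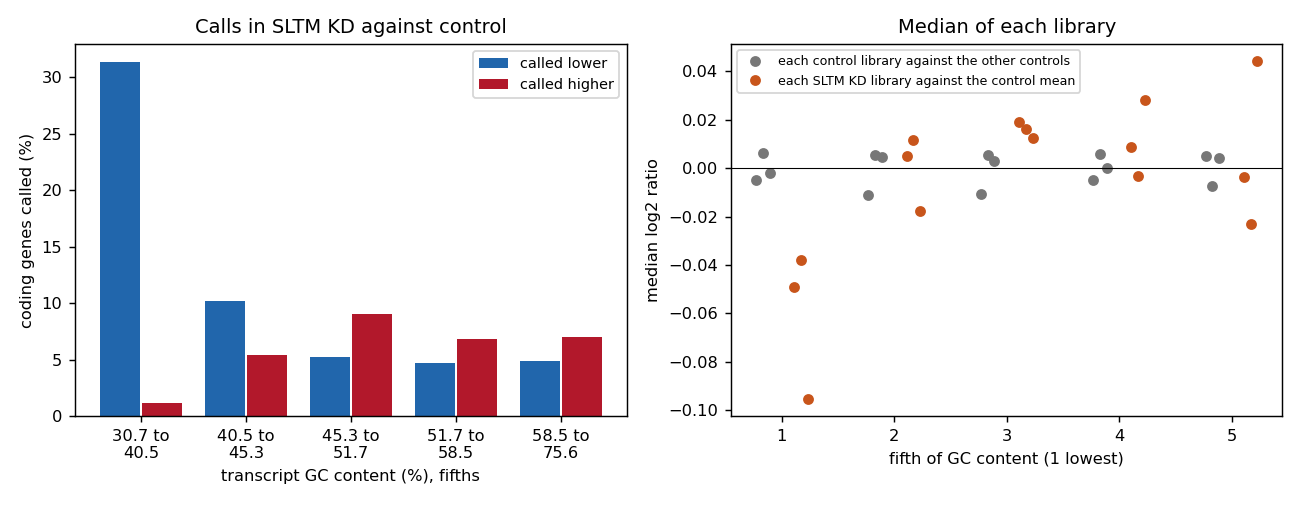
Left, percent of coding genes of at least 1 CPM called lower (blue) and higher (red) in SLTM KD against control (vertical axis, from 0) in 5 equal bins of transcript GC content. Right, median log2 ratio of each library (points) in each bin, control libraries in grey and SLTM KD libraries in orange. The lowest bin has 31.4% of genes lower, and its SLTM KD medians run from -0.0955 to -0.0381.

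Gene structure went with smaller differences. Among coding genes of at least 1 CPM, 14.5% of those with 1 to 3 introns and 14.3% of those with 4 to 9 introns were lower, against 7.41% of those with 10 or more, and 7.81% of the last class were higher. Coding genes with no intron had 25 higher (9.58%) and 30 lower (11.5%) of 261, beside 6.2% and 10.4% of all genes of at least 1 CPM. Without a limit on level, 3.6% of all genes were higher and 5.65% lower. Processed pseudogenes, the intron-less copies left by LINE-1 activity, had 18 higher (0.818%) and 34 lower (1.545%) of 2201. Of 589 that lie in an intron on the strand of their host, 13 were higher (2.21%) and 6 lower (1.02%), both shares below those of all genes, with a median of 0.0042. The SLTM KD libraries gave medians of -0.0278, -0.0623 and -0.0202 for this class and the control libraries -0.0239, -0.0220 and -0.0186, which overlap. Most of these loci were scarce, with a median level of 0.06 CPM. Of their 464 hosts, 29 were higher and 42 lower, with a median of 0.0033. At 1 CPM or more, 7.51% of the hosts were higher and 10.6% lower, beside 6.2% and 10.4% of all genes. The medians of the nested pseudogenes were 0.14 in SAFB1 KD and 0.46 in triple KD.

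Most genes encoded by the mitochondrial genome rose. Of 13 mitochondrially encoded proteins, 10 were higher and 1 lower (76.9% higher, beside 3.6% of all genes). MT-CO1, the catalytic subunit of cytochrome c oxidase, stood at 6926, 7363 and 7405 CPM in control and at 8402, 8562 and 9419.8 CPM in SLTM KD (0.28 ± 0.026, adjusted p = 2.18e-12). MT-ND1, a core subunit of complex I, rose from 1194, 1258 and 1285 CPM to 1454, 1489 and 1646 CPM (0.30 ± 0.028, adjusted p = 3.93e-12). The groups were separate for both genes. MT-ATP8, an ATP synthase subunit, went the other way (-0.19, adjusted p = 5.87e-06), and MT-ND3 and MT-ND4L did not pass the test. The share of all reads from mitochondrial genes moved with this, from 3.49 ± 0.159% (SD, n = 3) in control to 4.03 ± 0.191% in SLTM KD, and was 3.53% in SAFB1 KD and 4.35% in triple KD.

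Nuclear genes for the same organelle were called in both directions. Of 37 nuclear-encoded complex I genes, 10 were lower (27.0%) and none higher, with a median of -0.03. Lower genes made up 10.4% of all genes of at least 1 CPM and 16.0% of coding genes of at least 80.02 CPM. The median level of the complex I list was 84.7 CPM. NDUFC2 fell from 21.5, 23.7 and 22.7 CPM to 16.8, 16.2 and 11.9 CPM (-0.60 ± 0.064, adjusted p = 1.61e-10), with SLTM KD replicate 3 lowest (-0.46 without it). NDUFA5 fell from 97.6, 102 and 99.1 CPM to 84.9, 86.1 and 80.7 CPM (-0.25 ± 0.027, adjusted p = 1.86e-10), and by 0.12 with the GC offset. Mitochondrial ribosomal proteins had 8 of 78 lower (10.3%, close to the 10.4% of all genes of at least 1 CPM, and 4 without control replicate 3), such as MRPL42 (-0.24, adjusted p = 2.09e-10), and 3 higher, such as MRPL23 (0.33 ± 0.044, adjusted p = 7.69e-08). MRPL23 rose from 22.5, 20.3 and 22.9 CPM to 27.7, 26.8 and 27.9 CPM. CYCS, which encodes cytochrome c, the electron carrier that triggers the apoptosome once released, fell from 224, 237 and 227 CPM to 189.6, 188 and 169 CPM (-0.33 ± 0.03, adjusted p = 5.76e-13).

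Among 84 cytosolic ribosomal proteins, 24 were lower (28.6%, beside 5.65% of all genes and 16.0% of coding genes of at least 80.02 CPM) and 3 higher, with a median of -0.03. Only 15 were lower with upper-quartile factors. RPL26 was the clearest, at 108, 107 and 117 CPM in control and 82.7, 87.0 and 75.6 CPM in SLTM KD (-0.44 ± 0.034, adjusted p = 4.11e-15). RPL26 stood at 112, 107 and 120.5 CPM in triple KD, higher than in SLTM KD by 0.47 (adjusted p = 4.39e-18). RPS29 (-0.20) and RPS12 (-0.15) were lower by less, and RPS2, at a mean of 3712 CPM in control, was higher (0.12, adjusted p = 1.31e-06). Ribosomal protein genes have many processed copies, so their counts of unique reads cover part of each gene.

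The SR and TRA2 splicing factors, which bind exonic enhancers, had 6 of 14 members lower (42.9%, beside 10.4% of genes of at least 1 CPM) and SRSF5 higher (0.12, adjusted p = 0.000885). The median GC content of their transcripts was 40.5%, at the edge of the lowest bin, in which 31.4% of coding genes were lower. Their median level was 224 CPM. In that bin 41.2% of coding genes of at least 80.02 CPM were lower, close to the 42.9% of this list. SRSF1 fell most, from 94.5, 90.6 and 88.7 CPM to 67.0, 64.3 and 55.4 CPM (-0.55 ± 0.048, adjusted p = 2.06e-13), and 32.7% of its exonic bases are shared with another gene on its strand. SRSF11 fell from 274, 279 and 277 CPM to 250.5, 249 and 241 CPM (-0.16 ± 0.021, adjusted p = 4.13e-08), and SRSF3 from 537, 539 and 553 CPM to 509, 500.4 and 484 CPM (-0.13 ± 0.019, adjusted p = 1.99e-06). TRA2A fell by 0.17 on the log2 scale, nearly as in SAFB1 KD, from which it did not differ by the test (0.02 ± 0.029, adjusted p = 0.719). The count of 6 lower held without any 1 control or SLTM KD library and with the GC offset. Of 23 hnRNP proteins, which package nuclear RNA, 7 were lower and 2 higher, all by less than 0.2. HNRNPL changed from 383, 384 and 376 CPM to 356, 354 and 344 CPM (-0.12 ± 0.019, adjusted p = 7.63e-06), and HNRNPUL1 rose from 786, 779.8 and 773 CPM to 829.9, 834 and 828 CPM (0.09 ± 0.017, adjusted p = 6.4e-05).

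In the other RNA processing lists few members were called. Of all genes of at least 1 CPM, 6.2% were higher and 10.4% lower. These are the shares to set beside these and the following lists where no other share is given. Small counts in these and the following lists were unsteady: of 63 list counts above 0, 30 moved by over 1.5 times when a control or SLTM KD library was left out, 25 of them counts of 4 or fewer. The core spliceosome had 3 higher and 2 lower of 27, with SNRPE, an Sm ring protein, lower (-0.19 ± 0.023, adjusted p = 8.29e-09). Cleavage and polyadenylation factors had 1 higher and 3 lower of 21, and the NUDT21 call (-0.11, adjusted p = 0.000502) was lost with the GC offset. Among 20 genes of the nuclear matrix and paraspeckles, which include SLTM and SAFB2, 4 were higher and 2 lower. NEAT1, the RNA scaffold of paraspeckles, fell from 38.9, 38.6 and 33.4 CPM to 30.5, 27.3 and 30.2 CPM (-0.33 ± 0.055, adjusted p = 9.56e-06), and its level in SAFB1 KD did not differ from that in SLTM KD by the test (-0.01 ± 0.057, adjusted p = 0.974). Of 9 proteins that bind the SAFB family, ZNF638 (-0.08) and KHDRBS1 (-0.06) were lower, and NCOA5, a nuclear receptor coactivator, rose from 81.9, 79.2 and 79.7 CPM to 89.8, 86.8 and 87.8 CPM (0.14 ± 0.026, adjusted p = 0.000144). The ZNF638 call was lost under 4 alternatives, the GC offset among them, and that of KHDRBS1 under 8.

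Stress and growth lists held mostly small changes. Of 24 p53 targets, 7 were lower (29.2%, beside 10.4% of genes of at least 1 CPM) and none higher. TIGAR, which encodes a phosphatase that limits glycolysis, fell most, from 2.91, 2.62 and 2.71 CPM to 1.72, 1.68 and 2.22 CPM (-0.55 ± 0.12, adjusted p = 0.000805), with 18.1% of its exonic bases shared with other genes on its strand. The others changed by less than 0.2, among them CCNG1 (-0.15, adjusted p = 5.45e-07) and MDM2, the ubiquitin ligase that limits p53 (-0.14, adjusted p = 3.91e-05). MDM2 was lower still in SAFB1 KD, at 120.1, 120.1 and 116 CPM against 129, 128 and 123 CPM in SLTM KD (adjusted p = 0.00486). Apoptosis regulators had 5 lower (22.7%) and 1 higher of 22, with PMAIP1, which encodes NOXA, at -0.20 (adjusted p = 1.21e-10), reduced to -0.07 by the GC offset. Only 2 of them were lower without control replicate 1 or 2 or SLTM KD replicate 1 or 3, and also with upper-quartile factors. Of 24 genes of the integrated stress and unfolded protein responses, 4 were higher and 4 lower. PDIA4, a chaperone of the endoplasmic reticulum, rose from 174, 172 and 179 CPM to 197, 191 and 201 CPM (0.16 ± 0.023, adjusted p = 2.19e-07), less than in triple KD (366, 364 and 361 CPM, adjusted p = 1.39e-41 for the difference). Heat shock chaperones had 4 lower (21.1%, beside 16.0% of coding genes of at least 80.02 CPM) and 1 higher of 19. HSPE1, the mitochondrial co-chaperonin, fell from 34.9, 37.8 and 38.9 CPM to 29.8, 30.3 and 28.1 CPM (-0.34 ± 0.039, adjusted p = 1.41e-09).

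Of 28 interferon-stimulated genes tested, OAS3, which makes the activator of RNase L, was higher, at 23.3, 24.4 and 21.7 CPM against 18.5, 19.4 and 19.96 CPM (0.26 ± 0.044, adjusted p = 1e-05), and none was lower. That 1 gene is 3.57% of the list, beside 3.6% of all genes. Triple KD was higher than SLTM KD for OAS3 (28.2, 28.3 and 28.8 CPM, adjusted p = 2.55e-08). Among glycolysis genes 6 of 17 were lower (35.3%, beside 16.0% of coding genes of at least 80.02 CPM) and none higher. Beside LDHB, ALDOA (-0.45, adjusted p = 3.24e-06) shares 42.8% of its exonic bases with other genes, and TPI1, PGK1, PFKL and GPI changed by -0.07 to -0.09. Cholesterol synthesis genes had 6 of 23 lower (26.1%, beside the same 16.0%) and none higher. INSIG1, the sterol-regulated retention protein, stood at 79.3, 74.7 and 79.9 CPM in control, 68.8, 71.4 and 70.7 CPM in SLTM KD and 87.8, 88.0 and 89.4 CPM in SAFB1 KD, so the single knockdowns differed (-0.33 ± 0.027, adjusted p = 4.56e-15). With the GC offset 2 of these genes were lower, and with upper-quartile factors 3.

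Cell cycle lists were divided. G2/M genes had 2 higher and 4 lower of 25. NUSAP1, a spindle protein gene that shares 86.8% of its exonic bases with another gene on its strand, fell most, from 12.02, 11.6 and 11.997 CPM to 9.37, 10.6 and 7.84 CPM (-0.36 ± 0.066, adjusted p = 5.55e-05), and by 0.35 with the GC offset. The call of CCNA2, a cyclin gene (-0.14, adjusted p = 1e-05), was also kept with the offset, and that of CDK1 (-0.19, adjusted p = 1.41e-09) was not (adjusted p = 0.0936). The 2 higher genes, AURKA and CDC20, each by 0.07, lost their calls when any 1 control library was left out. G1/S and replication genes had 2 higher and 2 lower of 24. Centrosome and cilium genes had 6 higher (24.0%, beside 6.2% of genes of at least 1 CPM) and 2 lower of 25. The count of higher genes was 2 without SLTM KD replicate 1, 3 without control replicate 1 or 2, and 11 with the GC offset. Among them was PCNT, the pericentriolar scaffold, at 330.0, 339.9 and 331 CPM in control and 362, 369 and 381 CPM in SLTM KD (0.15 ± 0.02, adjusted p = 8.48e-08). POC1B, a centriole protein whose gene is on a list of 5 retrogene hosts, fell from 22.4, 22.0 and 21.1 CPM to 18.4, 18.3 and 18.02 CPM (-0.26 ± 0.044, adjusted p = 1.69e-05). SAFB1 KD was lower, at 11.7, 12.4 and 12.02 CPM, and triple KD far lower, at 2.12, 2.12 and 2.10 CPM (adjusted p = 2.93e-15 and 1.1e-44 for the differences from SLTM KD). Of the other hosts MBTPS2 was lower (-0.09, adjusted p = 0.0425), a call lost under 9 alternatives. Of 4 nested retrogenes tested UTP14C was lower (-0.32, adjusted p = 0.000496).

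Among 9 genes with giant coding exons, 2 were higher (22.2%, beside 6.2% of genes of at least 1 CPM), MAP2 (0.24, adjusted p = 0.0091) and ANK2. The MAP2 call was lost without SLTM KD replicate 2. ANK2, which encodes ankyrin-B, rose from 44.9, 45.2 and 47.2 CPM to 51.8, 49.8 and 50.1 CPM (0.14 ± 0.032, adjusted p = 0.000889), and reached 67.6, 70.0 and 68.5 CPM in triple KD. Chromosome 19 zinc finger genes, many of which repress transposable elements, had 11 higher and 9 lower of 241, close to the shares for all genes, with a median of 0.02, and 5 and 3 without control replicate 2. The HUSH and H3K9 methylation list had 1 higher of 12, TASOR, whose call was lost under 12 alternatives, and the LINE-1 restriction list 1 higher and 1 lower of 14. Estrogen receptor alpha targets and cofactors had 3 higher and 1 lower of 17, with the corepressor NCOR1 at 203, 205 and 206 CPM in control and 220.4, 226 and 223 CPM in SLTM KD (0.12 ± 0.022, adjusted p = 4.48e-05). DNA repair genes had 2 higher and 1 lower of 30, nonsense-mediated decay factors 2 and 1 of 14, and extracellular matrix and adhesion genes 4 and 2 of 27. The microRNA pathway had 1 lower of 13. Of 41 clustered protocadherins PCDHGA8 was lower, at a mean of 0.0541 CPM in control and with no read in SLTM KD, a call lost without control replicate 2 or 3 or any 1 SLTM KD library.

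An siRNA guide can also repress messenger RNAs through its seed, as a microRNA does, so genes were described by whether their 3′ UTR holds the word that pairs with guide bases 2 to 8 of the SLTM siRNA, AUUCGUG. Of 267 such genes of at least 1 CPM, 53 were lower (19.9%) and 13 higher, while 11.1% of the 11990 genes without it were lower. The medians differed by -0.0196 in SLTM KD, 0.0027 in SAFB1 KD and -0.0062 in triple KD. Genes with the word had lower transcript GC content (45.3% against 48.3%) and longer 3′ UTRs (3197 against 1226 bases). The word of the passenger strand, UCUAAUG, gave a like share, 19.8% lower of 1290 genes against 10.3% without, at a GC content of 42.1% against 49.4%.

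Extending the word by the base opposite guide base 1, to AUUCGUGA, left 64 genes, of which 19 were lower (29.7%, against 11.2% of genes without it) and 1 was higher. Genes with this longer word also had longer 3′ UTRs (3097 against 1255 bases), which a split by GC content does not match. In the 3 bins of highest GC content, where 4.59 to 5.08% of genes without the word were lower, 4 of 11, 4 of 11 and 3 of 6 genes with it were lower. In the lowest bin the shares were 36.8% and 31.5%, and in the next bin 5.88% and 10.3%. These genes were chosen after their values were seen. STX12, the third-lowest protein-coding gene by the naming rule, SLTM included, is among them, and its site and those of the next 4 genes by size of the fall are shown 5′ to 3′ as DNA of the transcribed sense strand, with the 8 bases in capitals.

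STX12, chr1:27822478-27822485 plus strand: tagtctttggaATTCGTGAcctatggagac
ALG10B, chr12:38328419-38328426 plus strand: tatccctctatATTCGTGAaattacttcta
LIN7C, chr11:27496378-27496385 minus strand: agaaatggatgATTCGTGAataaaactagg
SLC7A5, chr16:87832474-87832481 minus strand: gggcttgtgacATTCGTGAaaaccaaccct
CBX6, chr22:38864327-38864334 minus strand: gagttcgtgtcATTCGTGActtttttgtaa

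Each site lies in an annotated 3′ UTR of GRCh38. ALG10B, a glucosyltransferase of N-glycan assembly, stood at 36.1, 35.3 and 33.3 CPM in control and at 27.4, 26.9 and 23.1 CPM in SLTM KD (-0.43 ± 0.048, adjusted p = 5.51e-10). LIN7C, a polarity scaffold, fell from 37.2, 37.2 and 36.9 CPM to 31.1, 29.8 and 25.9 CPM (-0.36 ± 0.045, adjusted p = 1.92e-08). SLC7A5, the large neutral amino acid transporter LAT1, fell from 136, 132 and 128 CPM to 103, 101 and 107 CPM (-0.35 ± 0.026, adjusted p = 6.96e-16), and CBX6, a Polycomb chromobox protein, from 320.2, 311 and 314 CPM to 253, 262 and 256 CPM (-0.29 ± 0.021, adjusted p = 8.08e-17). None of these libraries overlapped between the groups, as for 23.9% of all genes tested. The last 2 genes have GC-rich transcripts, at 61.2% and 59.3%. In SAFB1 KD, SLC7A5 was higher than control (0.10, adjusted p = 0.00494) and CBX6 was not called (0.04, adjusted p = 0.241). SLTM KD was lower than SAFB1 KD for both (adjusted p = 1.81e-21 and 2.8e-20). In triple KD the log2 changes from control were -0.88 for ALG10B, -0.78 for LIN7C, -0.64 for SLC7A5 and -0.26 for CBX6, beside -0.04 for STX12. With a single siRNA, loss of SLTM and pairing of the guide with other messenger RNAs cannot be told apart, for these genes or others.

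Direct comparison with SAFB1 KD tested where the single knockdowns differ. Over all genes, 1809 were higher in SLTM KD than in SAFB1 KD (6.78%) and 2473 lower (9.27%). Of the 1509 genes lower in SLTM KD than in control, 1018 (67.5%) were also lower than in SAFB1 KD, 29 were higher, and 462 did not differ by the test. Of the 962 higher genes, 442 (45.9%) were also higher than in SAFB1 KD and 13 lower. Both comparisons use the same SLTM KD libraries, so these shares are not independent of the calls. Among the 15 lowest genes the exceptions were CFAP45 (0.47, adjusted p = 0.0781) and NPB (-0.11, adjusted p = 0.732), and 11 of the 15 highest were higher than in SAFB1 KD.

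Against triple KD, 4669 of all genes had more RNA in triple KD (17.5%) and 5010 had less (18.8%). Of the 1509 genes lower in SLTM KD, 570 were lower still in triple KD and 415 were higher. RHOT1, CENPQ, CFAP45, MICOS10 and GET1 were in the former set, and STX12, PSMA6, RPL26, RPS10P3 and EEF1A1P13 in the latter. PSMA6 stood at 6.74, 6.48 and 6.69 CPM in triple KD, within the range of control. Of the 962 higher genes, 428 were higher still in triple KD and 201 lower. LGALS8-AS1 was in the lower set (-0.45, adjusted p = 0.0158), and CHP1P2 in the higher (1.81, adjusted p = 2.7e-23).

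Markers of the cell line were present and little changed. The summed level of 8 HEK293 markers was 1775 to 1811 CPM in control and 1840 to 1873 CPM in SLTM KD. VIM was higher (0.09, adjusted p = 0.000117), NEFL lower (-0.13, adjusted p = 2.06e-05), and PAX8 was close to 0 in both groups. Leukocyte markers summed to 0.064 to 0.107 CPM in control and 0.048 to 0.168 CPM in SLTM KD, and squamous markers to 0.027 to 0.048 and 0.069 to 0.128 CPM. Fibroblast markers summed to 14.2 to 15.1 and 14.3 to 15.2 CPM, nearly all from COL1A1, and colon markers to 28.1 to 29.7 and 27.6 to 30.7 CPM, nearly all from CDX2. None of the markers of other cell types was called.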

How the data were processed

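The data are poly(A)-selected, stranded RNA-seq libraries of HEK293 cells, 3 per group in 4 groups. The authors purified poly(A) RNA in 2 rounds, aligned reads with STAR 2.7.9a to GRCh38 and deposited raw counts of uniquely assigned reverse-strand reads per GENCODE 29 gene. A read over exons of more than 1 gene on its strand was not counted. The labels also name deepTools 3.5.1. Counts were used as deposited, from 58780 gene IDs per library.

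Genes with at least 10 counts over the 12 libraries (26688) were fitted in R 4.3.3 with edgeR 4.0.16 (TMM factors, quasi-likelihood F test, group as the only term) in 1 fit. Two-sided p-values were adjusted by Benjamini and Hochberg's method across the whole table, a gene being called under 0.05, and glmTreat tested changes over 2-fold. The p-values measure the spread between the libraries. The common biological coefficient of variation was 2.14%. The scripts were tested on simulated data. Medians of single libraries used CPM plus 0.1.

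Annotation, GC content (canonical transcript), 3′ UTRs (at least 50 bases) and sequences came from GENCODE 44, in which 99.1% of the gene IDs were found, and siRNA sequences came from the study's oligonucleotide table. Named genes were SLTM, SAFB and SAFB2, the 15 highest and 15 lowest called genes whose libraries did not overlap between the groups and whose mean reached 1 CPM in either, up to 4 called members of each of 44 lists by smallest adjusted p, hosts of named nested genes and near matches of the siRNA. The members and lists were chosen with earlier results of these data known. SAFB2 knockdown libraries were not analysed here.

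Alternatives were RLE and upper-quartile factors, other filters, leaving out libraries or mitochondrial genes, a replicate block, a fit of the compared libraries alone, limma-voom (limma 3.58.1), DESeq2 1.42.0 and, added later, a transcript GC offset. The result of 1 gene list is not reported here.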

Additional observations from a re-analysis of the deposited data

How the results depend on the processing

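SLTM kept its direction and its call under every alternative, between -2.58 and -2.46 when a library was left out. The called genes numbered 1756 to 2628 when any 1 of the 12 libraries was left out, the lower genes 1113 to 1618 and the higher genes 565 to 1048, the lowest without control replicate 2. Upper-quartile factors gave 1552 higher genes, and a replicate block 3172 called genes (1311 higher, 1861 lower), among which were 2469 of the 2471 main calls. Same-numbered control and SLTM KD libraries correlated at 0.095, 0.025 and 0.16 over 9970 genes, and differently numbered ones at -0.132 to 0.049. Control replicates 1 and 3 correlated best with the SLTM KD library of their own number, and control replicate 2 with SLTM KD replicate 1 (0.036). These values do not settle whether the numbers pair the libraries, and the main fit did not pair them. The block result is given only here. Of the 2 genes changed over 2-fold, SLTM alone (1 gene) remained under filterByExpr, in the fit of the compared libraries, with limma-voom and with DESeq2, and 1 to 2 genes remained when a library was left out. SLTM KD against SAFB1 KD gave 3138 to 4284 called genes (1435 to 1869 higher, 1693 to 2467 lower) and triple KD against SLTM KD 8707 to 9798 (4183 to 4790 higher, 4372 to 5063 lower) when a library was left out. The median of the same-strand nested pseudogenes, 0.0042, was 0.06 among genes of at least 1 CPM, 0.0407 under filterByExpr and -0.0253 to 0.0486 when a library was left out, so its sign is not fixed. The seed-word difference ran from -0.0323 to -0.0064 when a library was left out. With the transcript GC offset, chosen after seeing the data, CPSF6 turned from lower to 0.001 and GNAI3 to 0.0007, neither called. The causes were not tested. Of 164 called genes that were named or hold the 8-base seed word, 108 kept their call and direction under all alternatives and 56 lost the call under at least 1, of which 11 had changed by 0.2 or more on the log2 scale.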

Other observations

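Gene length showed little relation to the calls beside the GC relation described above. Coding genes over 50 kb had 320 higher (5.30%) and 547 lower (9.06%) of 6040, with a median of 0.0066. Those of 50 kb or less had 426 higher (4.27%) and 858 lower (8.59%) of 9988, with a median of -0.0026. Of all coding genes tested, 4.65% were higher and 8.77% lower. Processed pseudogenes in introns on the strand opposite to their host had 1 higher (0.234%) and 8 lower (1.87%) of 427. Those in no intron had 4 higher (0.338%) and 20 lower (1.69%) of 1185, beside 3.6% and 5.65% of all genes. The medians of the opposite-strand and no-intron pseudogenes were -0.17 and -0.15, at median levels of 0.06 and 0.05 CPM, where single reads weigh on the values.

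The 8-base words of the other guides were counted in the same way, as a comparison for the SLTM guide. Genes with the SAFB1 guide's 8-base word had 24.1% lower of 856 in SAFB1 KD, against 6.77% without it, and 16.6% against 10.9% in SLTM KD, where that guide was not used. Genes with the SAFB2 guide's 8-base word had 20.7% lower of 421 in SLTM KD, against 10.98% without it, although no siRNA against SAFB2 was given there. Both sets have low GC content, at 42.2% and 41.9%, beside 48.9% and 48.5% for genes without the words.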
